A study of Mus musculus with 6 samples.

Results

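N-acylethanolamines and 2-arachidonoylglycerol (2-AG) are lipid messengers of the brain, and the 10 genes described here encode enzymes that make or break them and the receptor that some of them activate. *Pla2g4e*, the gene knocked down in this study, encodes an N-acyltransferase that joins an acyl chain to phosphatidylethanolamine and so forms N-acyl-phosphatidylethanolamines (NAPEs). The genes were listed by name, by a rule that uses no measured value. *Napepld*, *Abhd4* and *Gde1* act on NAPEs or their breakdown products, *Faah* and *Naaa* hydrolyse N-acylethanolamines, *Dagla* and *Daglb* synthesize 2-AG, *Mgll* and *Abhd6* hydrolyse it, and *Cnr1* encodes the CB1 cannabinoid receptor. All 10 were found among the 55357 genes in the deposited counts, and all 10 were among the 21876 genes tested, which had at least 6 reads in at least 1 library.

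RNA-seq was performed on 6 libraries of poly(A) RNA from wild-type mouse primary neuronal cultures, which were prepared from the cortex and hippocampus of C57BL/6N embryos. In 3 libraries (shCtrl) a lentivirus had delivered a scrambled shRNA at DIV4 (days in vitro), and in the other 3 (sh*Pla2g4e*) it had delivered an shRNA against *Pla2g4e*, with collection at DIV14. Both groups therefore carried a lentivirus, in the same amount, and the knockdown rests on a single hairpin, sh2, whose dose was set by its effect on the *Pla2g4e* transcript. The labels do not say that the replicates came from separate dissections, so the p-values measure the spread between these 6 libraries.

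The libraries held 17054717 to 23570180 counted reads. Values of single libraries are given in the order of replicates 1, 2 and 3. The targeted transcript *Pla2g4e* had 38.0, 35.1 and 35.4 CPM (reads per 1000000 after TMM scaling of the libraries) under shCtrl, against 21.8, 14.1 and 18.7 CPM under sh*Pla2g4e*, so that 50.5% was left. As for the label of the cells, 10 pan-neuronal markers summed to between 5023 and 6181 CPM over the libraries and 6 markers of glutamatergic neurons to between 1515 and 2267 CPM. Glia were present too, since 8 astrocyte markers summed to between 1899 and 3630 CPM and 8 markers of the oligodendrocyte lineage to between 516.4 and 640.3 CPM. The 8 microglial markers reached at most 9.68 CPM together, and the 8 mural and endothelial markers 29.1 to 86.7 CPM, with *Cldn5* at 0 in all libraries.

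The pathway has separate branches. Calcium-dependent N-acyltransferases form NAPEs, and NAPEs are then cleaved to N-acylethanolamines such as anandamide and palmitoylethanolamide, either in 1 step by NAPE-PLD or through intermediates. 2-AG arises in neurons from diacylglycerol, downstream of Gq-coupled receptors and phospholipase C, and travels back across the synapse to CB1 receptors on the presynaptic terminal. Hydrolysis then ends both signals, mainly through FAAH for anandamide and through monoacylglycerol lipase for 2-AG.

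To see how the knockdown of a NAPE-forming enzyme bears on the transcripts of these steps, edgeR's quasi-likelihood test was applied to the groups, and a gene was called where its p, adjusted across the whole table, was below 0.01. *Dagla*, the diacylglycerol lipase that makes most 2-AG at synapses, was the 1 gene of the 10 that passed, and it fell to 68.9% of its shCtrl level. Over all genes tested 6.49% were called, 4.00% as down-regulated and 2.48% as up-regulated. None of the 10 was up-regulated. Their log2 fold changes had a median of −0.09 (7 lower, 3 higher), while the median of the whole table was 0.03. No shCtrl library fell among the sh*Pla2g4e* libraries, or the reverse, for 3 of the 10, and for 30.0% of all genes tested. *Dagla* and *Mgll* were lower in this way, as were 14.6% of all genes, and *Napepld* was higher, as were 15.5%. In bulk cultures, fewer cells of a type and less RNA per cell cannot be told apart.

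**Figure D1:**
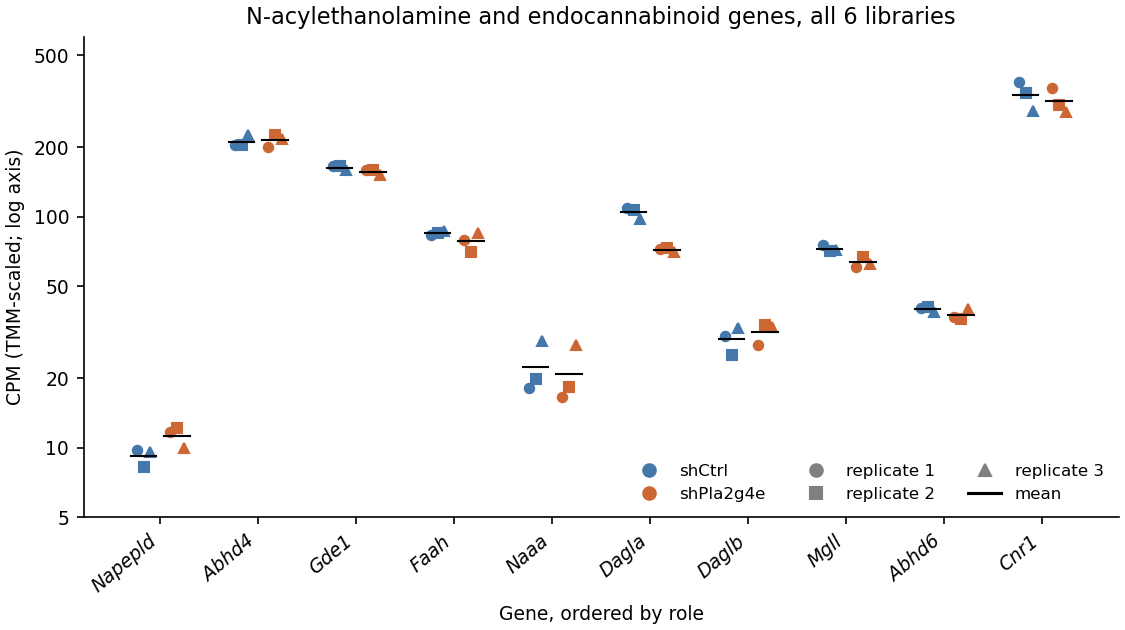
CPM of the 10 genes on a log axis, ordered by their role, with 1 point per library (colour for the group, shape for the replicate number) and a bar at the mean of 3 libraries. For *Dagla* the sh*Pla2g4e* points lie between 70.4 and 72.9 CPM, below all shCtrl points, and for *Naaa* both libraries numbered 3 stand above the others.

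*Dagla* (ENSMUSG00000035735, GRCm39 chr19:10222629-10282241, minus strand) had 108.7, 107.0 and 97.2 CPM under shCtrl, against 72.2, 72.9 and 70.4 CPM under sh*Pla2g4e*. All 3 knockdown libraries lay below all 3 controls, and they were closer to each other than the controls were. Mean levels stood at 104.3 ± 6.22 and 71.8 ± 1.26 CPM (SD, n = 3 each). On the log2 scale the difference was −0.54 (standard error 0.079, 95% interval −0.70 to −0.37, adjusted p = 2.82e-04 in edgeR). The change did not rest on a single library, since leaving out each in turn gave log2 fold changes between −0.59 and −0.51. Over the alternatives tried, its adjusted p in edgeR, limma or DESeq2 ran from 4.10e-09 to 0.00414, the latter without shCtrl replicate 2. *Dagla* passed in each of them and no other gene of the 10 did. At the same threshold, DESeq2 called 11.6% of the 16362 genes to which it gave an adjusted p. The share of all genes called was 6.53% with limma after voom, 6.09% with upper-quartile scaling and 6.42% with library size alone. It was 7.30% without a filter, 8.24% with 10 reads required in every library, 7.74% with filterByExpr, 7.14% in the robust fit and 15.5% with a block for the replicate number. Without shCtrl replicates 1, 2 and 3 in turn it was 4.29%, 3.21% and 5.99%, and without the sh*Pla2g4e* replicates 4.00%, 4.34% and 7.46%. At an adjusted p of 0.05 it was 12.9% without the block, and *Dagla* was again the 1 gene of the 10. With the block it was 21.8% at 0.05, and *Mgll* passed beside *Dagla*.

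*Dagla* was also the 1 gene of the 10 with a match to the seed of the sh2 guide strand in the 3′ UTR of its longest coding transcript. The seed comprises bases 2 to 8 of the guide, and an mRNA pairs with it through the letters GTGGCCA. The sequences below are given 5′ to 3′, with the seed or the letters that pair with it in capitals. The first pair shows the hairpin, and the others show the stretch of 30 bases around each such match in a 3′ UTR of the 10 genes, taken from GENCODE vM21 transcripts.
sh2 target in *Pla2g4e*: ggaagatggtgGTGGCCAa
sh2 guide strand: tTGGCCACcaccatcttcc
*Dagla*, match at chr19:10247648-10247654 on the minus strand of GRCm38: agcacttggcaGTGGCCAccagctccttcc
*Mgll*, match at chr6:88766676-88766682 on the plus strand of GRCm38: cacgtcttgatGTGGCCAccaagaataaat

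In *Dagla* the match lies at nucleotides 3245 to 3251 of the transcript ENSMUST00000039327, in exon 20. The 3′ UTR makes up the last 2399 of its 5634 nt, so the match lies at its very start, close behind the stop codon. Whether a match at that place acts on the transcript was not tested. In *Mgll* it lies in exon 4 of another transcript, ENSMUST00000150180, and not in the longest one. *Abhd6* holds the letters 2 times in its coding sequence and *Gde1* once in its 5′ UTR, and the remaining 6 genes hold them in none of these regions of any coding transcript. Beyond the 7 letters of a seed match, no gene of the 10 shared a run of more than 11 bases with the 19 bases of the sh2 target. Such a match is common. It was present in 13.4% of the 15648 tested genes with a 3′ UTR in the longest coding transcript, and in 20.4% of those whose 3′ UTR had 2000 to 3000 nt, the class of *Dagla*. Of the 2103 genes with it, 17.5% were down-regulated and 1.62% up-regulated, against 3.60% and 3.29% of the 13545 genes without it. With the replicate block the shares were 30.2% and 4.80% with it, and 9.44% and 8.48% without it. With 1 hairpin per group, an effect of the lower *Pla2g4e* transcript and one of the hairpin's own sequence on *Dagla* cannot be told apart.

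Of 4 lists of neuronal markers, 3 had lower sums in the same libraries as *Dagla*, and that of CCK-type interneurons, given with *Cnr1*, had a higher one. The 6 markers of glutamatergic neurons summed to 2089 to 2267 CPM in shCtrl and 1515 to 1818 CPM in sh*Pla2g4e* cultures, with 2 down-regulated and 1 up-regulated (3 and 1 with the replicate block). The 10 pan-neuronal markers summed to 5644 to 6181 and 5023 to 5502 CPM, with 3 down-regulated and 1 up-regulated (4 and 2 with the block). The 8 markers of GABAergic neurons summed to 1159 to 1249 and 945.6 to 1069 CPM, with 2 down-regulated and 1 up-regulated (3 and 1 with the block). Single markers went both ways, with 3 lower and 3 higher among the glutamatergic, 7 and 3 among the pan-neuronal and 5 and 3 among the GABAergic markers. The part of these cells in the fall of *Dagla* was not tested.

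*Daglb* encodes the other diacylglycerol lipase, which is best known from microglia and macrophages. It had 30.6, 25.3 and 33.0 CPM in shCtrl libraries and 27.9, 34.0 and 33.2 CPM in sh*Pla2g4e* libraries, so that the groups overlapped. Its log2 fold change was 0.10 (95% interval −0.15 to 0.34, adjusted p = 0.674 in edgeR), an interval from 90.2% to 126.6% of the control level. A gene on the opposite strand covers 24.1% of its exon bases, and since the counting kept no strand, reads of both genes cannot be told apart there. The ratio of *Dagla* to *Daglb*, per exon length and within a library, does not depend on the scaling of the libraries. It was 5.92, 7.05 and 4.90 under shCtrl, against 4.31, 3.57 and 3.53 under sh*Pla2g4e*. The means were 5.96 ± 1.08 and 3.80 ± 0.436 (SD, n = 3 each), and the groups did not overlap. Over the longest coding transcript the means were 2.95 and 1.89. With either length *Dagla* transcripts were more abundant than those of *Daglb* in every library.

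Of the enzymes that hydrolyse 2-AG, *Mgll* encodes monoacylglycerol lipase, the main presynaptic one, and *Abhd6* a postsynaptic one. *Mgll* (ENSMUSG00000033174, GRCm39 chr6:88701394-88805342, plus strand) had 75.5, 70.8 and 71.4 CPM under shCtrl, against 60.3, 67.0 and 62.5 CPM under sh*Pla2g4e*. The groups did not overlap, but the gap between them was small. The mean levels were 72.6 ± 2.55 and 63.3 ± 3.43 CPM (SD, n = 3 each). On the log2 scale the difference was −0.20 (standard error 0.080), which did not pass the threshold (adjusted p = 0.129 in edgeR). Over the alternatives the adjusted p of *Mgll* ran from 0.0443 to 0.366. The lowest value, from edgeR with the replicate block, passed at 0.05 but not at the main threshold. A gene on the opposite strand covers 3.29% of the exon bases of *Mgll*. *Abhd6* had 38.7 to 40.6 CPM in shCtrl and 36.0 to 39.9 CPM in sh*Pla2g4e* cultures, and the groups overlapped (log2 fold change −0.09, adjusted p = 0.597 in edgeR). Of the 50-base stretches of *Abhd6* 5.30% also occur in other genes. Its 95% interval ran from 82.7% to 107.0% of the control level, and that of *Mgll* from 77.5% to 98.2%. Both intervals lie above the 77.4% at which that of *Dagla* ended, though the lower end of *Mgll* is close to it.

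With *Dagla* lower, the ratio of *Mgll* to *Dagla* per length was higher in every sh*Pla2g4e* library, at 0.946, 1.04 and 1.004 against 0.786, 0.749 and 0.832 in the controls. The means were 0.789 ± 0.0418 in shCtrl and 0.997 ± 0.0477 in sh*Pla2g4e* cultures (SD, n = 3 each). Over the longest coding transcript in place of all exons, an alternative for the ratios chosen after seeing the data, the means were 0.984 and 1.24. Over all exons *Mgll* lay below *Dagla* in sh*Pla2g4e* replicate 1 and above it in replicates 2 and 3. Over the longest transcript it lay above *Dagla* in every sh*Pla2g4e* library, and the ratio in shCtrl replicate 3 moved from 0.832 to 1.04. The order of both transcripts thus depends on the library and the length used. The ratio of *Abhd6* to *Mgll* overlapped between the groups, with means of 1.25 ± 0.0505 and 1.35 ± 0.119 (SD, n = 3 each), or 0.985 and 1.07 over the longest coding transcript.

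**Figure D2:**
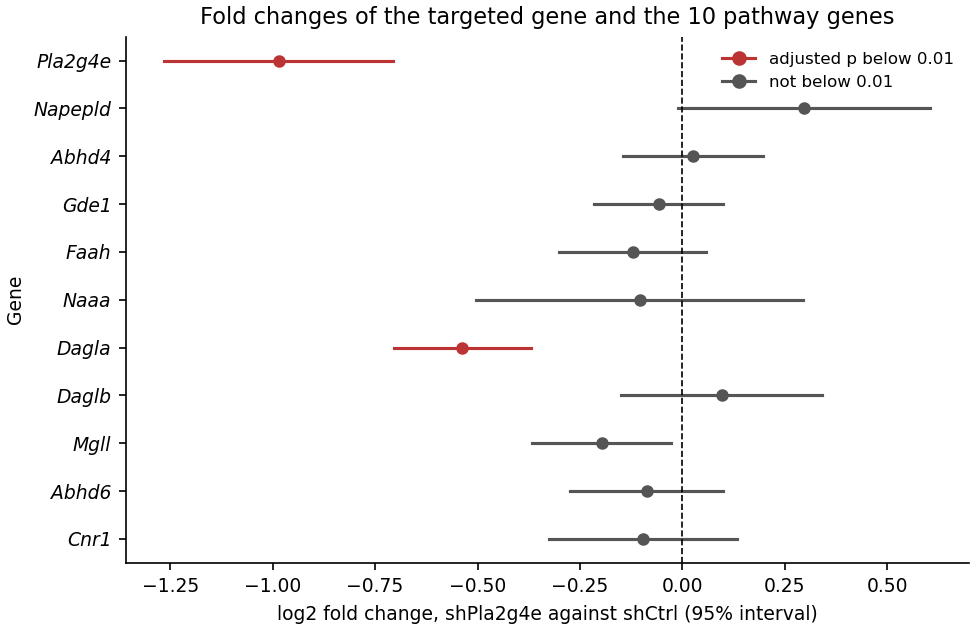
Log2 fold change of sh*Pla2g4e* against shCtrl cultures with its 95% interval, for *Pla2g4e* and the 10 genes in the order of their roles. Red marks an adjusted p below 0.01, which *Pla2g4e* (−0.99) and *Dagla* (−0.54) reached.

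*Napepld*, *Abhd4* and *Gde1* stand downstream of the reaction that *Pla2g4e* catalyses. *Napepld* encodes NAPE-PLD, the phospholipase D that releases N-acylethanolamines from NAPEs in 1 step. It had 9.80, 8.25 and 9.55 CPM under shCtrl, against 11.7, 12.2 and 9.94 CPM under sh*Pla2g4e*, the lowest levels of the 10 genes per length. All knockdown libraries lay above all controls, though replicate 3 by only 0.06 on the log2 scale over the control of its number. Mean levels of 9.20 ± 0.829 and 11.3 ± 1.19 CPM resulted (SD, n = 3 each). The log2 fold change of 0.30 (standard error 0.15) did not pass the threshold (adjusted p = 0.216 in edgeR, from 0.119 to 0.487 over the alternatives), and the interval reached from 99.2% to 152.1% of the control.

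*Abhd4* encodes a lipase that strips acyl chains from NAPEs, and *Gde1* a phosphodiesterase that takes the resulting glycerophospho-N-acylethanolamines further. *Abhd4* had 203.3 to 224.6 CPM in shCtrl and 200.4 to 225.8 CPM in sh*Pla2g4e* libraries, and these ranges nearly coincided. Its log2 fold change of 0.025 had a 95% interval from −0.15 to 0.20, so that a change beyond 90.4% or 114.6% of the control lay outside it (adjusted p = 0.896 in edgeR). *Gde1* had 158.7 to 165.1 CPM and 151.5 to 159.5 CPM, with a log2 fold change of −0.058 and an interval from 86.2% to 107.2% of the control (adjusted p = 0.697 in edgeR). A gene on the opposite strand covers 13.5% of its exon bases. Per length, *Gde1* exceeded *Napepld* 39.3, 46.8 and 38.9 times under shCtrl and 31.8, 30.3 and 35.6 times under sh*Pla2g4e*. This ratio was lower in all knockdown libraries than in all controls, whereas the ratio of *Abhd4* to *Napepld* overlapped between the groups.

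*Faah* encodes fatty acid amide hydrolase, a membrane enzyme, and *Naaa* an amidase of the lysosome that prefers saturated N-acylethanolamines and is abundant in macrophages. *Faah* had 82.9, 85.1 and 86.6 CPM under shCtrl, against 79.2, 70.4 and 84.6 CPM under sh*Pla2g4e*. The lowest of these 6 libraries was sh*Pla2g4e* replicate 2, and the groups overlapped. Its log2 fold change was −0.12 (95% interval −0.30 to 0.058, adjusted p = 0.412 in edgeR). *Naaa* had 18.1, 19.8 and 28.9 CPM under shCtrl, against 16.5, 18.3 and 27.7 CPM under sh*Pla2g4e*. In both groups replicate 3 was the highest, and the spread within a group (SD 5.81 and 6.02 CPM) exceeded the difference of the means of 22.2 and 20.8 CPM. Its log2 fold change was −0.10 (95% interval −0.50 to 0.30, adjusted p = 0.797 in edgeR), the widest interval of the 10.

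Libraries numbered 3 also had the highest sums of microglial, astrocyte, and mural and endothelial markers in their groups. The 8 microglial markers summed to 5.29, 4.58 and 9.68 CPM under shCtrl and to 4.85, 3.14 and 5.60 CPM under sh*Pla2g4e*. The 8 astrocyte markers summed to 2826, 3188 and 3630 CPM and to 2074, 1899 and 3082 CPM in the same order. The 8 mural and endothelial markers summed to 29.1, 47.3 and 73.2 CPM and to 33.7, 43.6 and 86.7 CPM, with replicates in the same order of level as for *Naaa*. Between the groups, 3 astrocyte markers were down-regulated and none up-regulated, and none of the 6 microglial markers tested passed. With the replicate block 6 astrocyte markers were down-regulated and 1 up-regulated, and again no microglial marker passed. Of the 7 mural and endothelial markers tested none passed, and 3 were up-regulated with the block. The part of these cells in the level of *Naaa* was not tested. Within pairs of libraries of the same number, *Naaa* differed by −0.13, −0.12 and −0.06 on the log2 scale.

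*Cnr1*, the gene for the CB1 receptor, is known for its high expression in CCK-containing interneurons and lower expression in pyramidal neurons. It had 382.7, 341.2 and 287.7 CPM under shCtrl, against 360.2, 303.3 and 282.4 CPM under sh*Pla2g4e*. The groups overlapped, replicate 1 was the highest and replicate 3 the lowest in both, and each sh*Pla2g4e* library lay below the control of its number. On average it had 337.2 ± 47.6 and 315.3 ± 40.3 CPM (SD, n = 3 each). On the log2 scale the difference was −0.096 (95% interval −0.33 to 0.13, adjusted p = 0.646 in edgeR), an interval from 79.8% to 109.7% of the control level. In the same libraries, 6 markers of CCK-type interneurons summed to 192.1 to 194.9 CPM in shCtrl and 365.8 to 371.5 CPM in sh*Pla2g4e* cultures. That sum is mostly *Cck*, the 1 of the 6 that was up-regulated (log2 fold change 1.11). With the replicate block 3 of the 6 were up-regulated. A sum led by 1 gene is not a count of such cells, and their part in the level of *Cnr1* was not tested. The genes most like *Cnr1* in their log2 CPM over the 6 libraries, of 10907 compared, were *Bin1*, *Dnm1* and *Stam*, each with a Pearson correlation of 0.99. With 6 libraries and so many genes this is a description, and the points share library composition and depth.

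**Figure D3:**
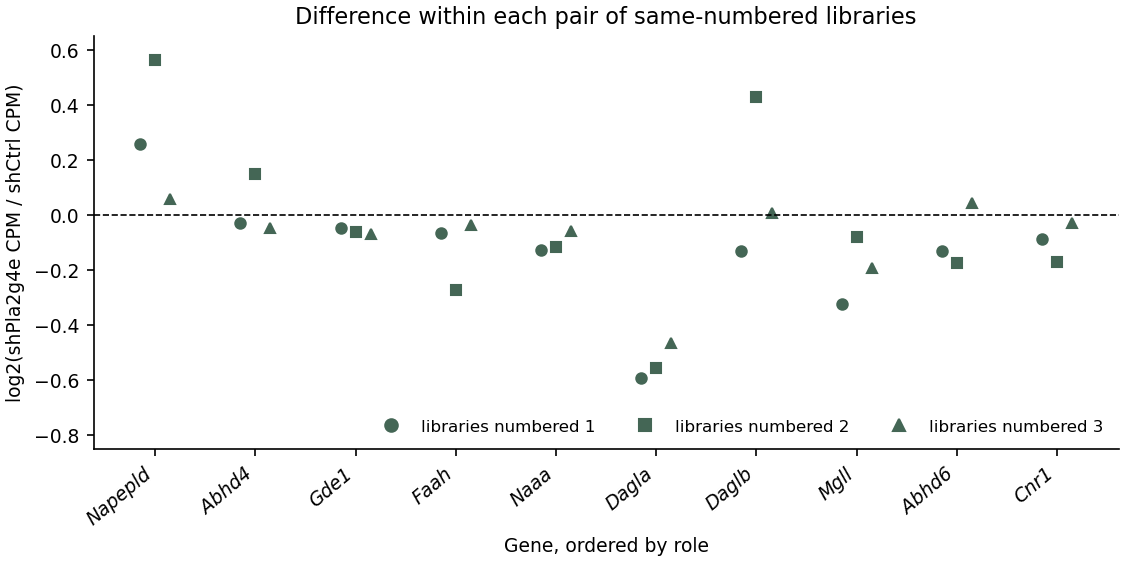
Log2 ratio of sh*Pla2g4e* to shCtrl CPM within each pair of libraries of the same number (shape), for the 10 genes in the order of their roles, with 0 as no difference. *Dagla* lies between −0.59 and −0.46 in the 3 pairs, and *Daglb* is spread from −0.13 to 0.43.

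In the control cultures, the order of the levels per exon length (CPM per kilobase, RPKM) was led by *Gde1* with 96.3 ± 2.13 RPKM, *Abhd4* with 64.2 ± 3.66 RPKM and *Cnr1* with 52.3 ± 7.39 RPKM (SD, n = 3 each). *Dagla* (18.1 ± 1.08), *Abhd6* (17.9 ± 0.442), *Mgll* (14.3 ± 0.503) and *Faah* (10.8 ± 0.238 RPKM) followed. *Naaa* (5.97 ± 1.56), *Daglb* (3.10 ± 0.415) and *Napepld* (2.33 ± 0.210 RPKM) came last. *Dagla* and *Abhd6* overlapped between libraries, and all other neighbours in this order were separate in the 3 controls. The order depends on the length used. Over the longest coding transcript in place of all exons, *Faah* had 22.2 RPKM, which moved it from the 7th to the 4th place, and *Daglb* had 6.37 RPKM. *Pla2g4e* itself had 5.19 ± 0.229 RPKM in the controls, above *Daglb* and within the range of *Naaa*.

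Another 34 genes of the pathway, listed by name, were examined beside the 10. Of these, 29 had enough reads, 18 of them lower and 11 higher, and the median of their log2 fold changes was −0.09. *Pla2g4e* was the 1 down-regulated gene and *Ptgs2* the 1 up-regulated gene, which makes 2 of 29, where 6.49% of all genes were called. When the model held a term for replicate number (the replicate block), the count was 6 of 29, where 15.5% of all genes were called, and *Chrm1*, *Gpr55*, *Plcb1* and *Plcg2* were added, named here after their values were seen.

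*Ptgs2* encodes cyclooxygenase-2, which oxidizes arachidonic acid and can also oxidize 2-AG and anandamide. It had 13.5, 6.44 and 14.4 CPM under shCtrl, against 74.7, 68.7 and 36.1 CPM under sh*Pla2g4e*. All knockdown libraries were higher, with replicate 3 nearest to the controls. On average it had 11.5 ± 4.36 and 59.9 ± 20.8 CPM (SD, n = 3 each). On the log2 scale the difference was 2.38 (standard error 0.26, adjusted p = 1.73e-05 in edgeR). In edgeR's robust fit the adjusted p was 0.0415.

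Among the genes upstream of 2-AG, *Plcb1*, a phospholipase C downstream of Gq-coupled receptors, had 230.1, 219.3 and 173.7 CPM under shCtrl, against 171.2, 139.9 and 145.0 CPM under sh*Pla2g4e*. The groups did not overlap. Its log2 fold change of −0.45 (standard error 0.11) stood at an adjusted p of 0.0101 in edgeR, just short of the threshold, and of 1.62e-07 with the block. It passed with limma after voom (adjusted p = 0.00887), DESeq2 (8.43e-04), the robust fit (0.00725) and no filter (9.63e-06), and when shCtrl replicate 3 (0.00118) or sh*Pla2g4e* replicate 1 (0.00797) was left out. Its adjusted p was highest, at 0.0687, without shCtrl replicate 2. *Plcg2* (log2 fold change 0.80) had an adjusted p of 0.0282 in edgeR, 0.00189 with the block and 0.00589 without a filter. *Chrm1*, a muscarinic acetylcholine receptor, differed by −0.23 on the log2 scale (adjusted p = 0.0953 in edgeR, 0.00607 with the block). *Plcb1* holds a match to the sh2 seed in its coding sequence and in a 3′ UTR outside its longest transcript. *Chrm1* holds one in its coding sequence, and *Gpr55*, whose level was higher, holds one in its 3′ UTR. An effect of the hairpin's own sequence on these genes was not tested. In the edgeR test without the block, none of the 4 Gq-coupled receptors and 6 phospholipases C passed.

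Of the other receptors, *Gpr55* had 0.503 to 0.922 CPM in the controls and 1.38 to 3.03 CPM in sh*Pla2g4e* cultures (log2 fold change 1.42, adjusted p = 0.0312 in edgeR, 0.00591 with the block, 0.00604 without a filter). *Cnr2*, the gene of the CB2 receptor, *Gpr18*, *Gpr119*, *Adgrf1* and the acyltransferase gene *Plaat5* had fewer than 6 reads in every library and were not tested. The 3 genes of the list with the highest levels per exon length in the controls were *Gprasp1* (69.8 RPKM), whose product sorts receptors to lysosomes, *Abhd12* (54.6 RPKM), a further 2-AG hydrolase, and *Fabp7* (47.6 RPKM), a fatty acid carrier of radial glia and astrocytes. *Gprasp1* had 567.0 ± 51.9 and 526.3 ± 31.5 CPM, *Abhd12* 154.2 ± 4.53 and 156.2 ± 2.23 CPM and *Fabp7* 59.5 ± 9.06 and 57.9 ± 20.2 CPM in shCtrl and sh*Pla2g4e* cultures (SD, n = 3 each). Over the longest coding transcript *Gprasp1* (97.0 RPKM) was followed by *Fabp5* (87.0 RPKM) and *Cnrip1* (78.3 RPKM) in place of *Abhd12* (77.1 RPKM) and *Fabp7* (67.6 RPKM). None of the 3 genes named first passed the threshold (adjusted p = 0.495, 0.917 and 0.914 in edgeR). Of the 50-base stretches of *Gprasp1* 12.8% also occur in other genes, as do 21.1% of those of *Fabp5*, and their levels are uncertain to that extent.

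**Figure D4:**
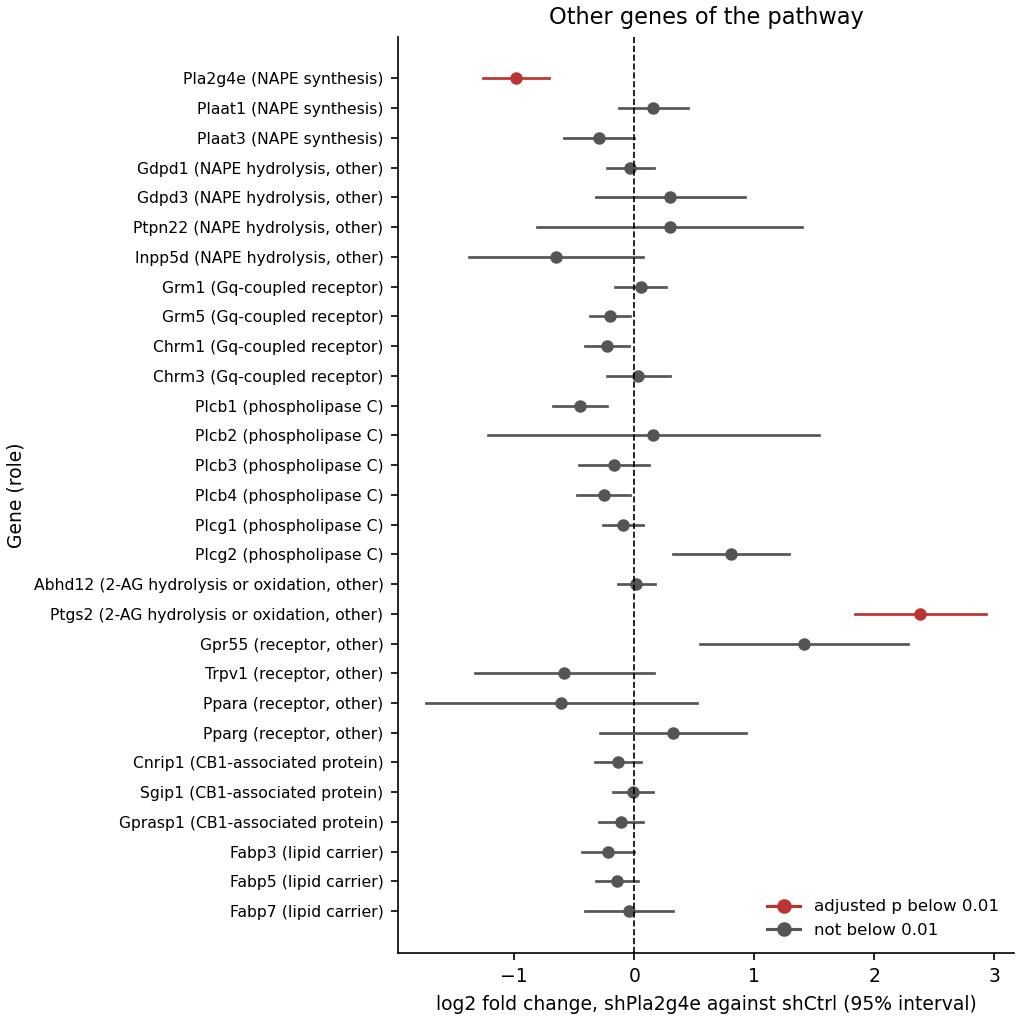
Log2 fold change with its 95% interval for the 29 other pathway genes with enough reads, with the role of each in parentheses. *Ptgs2* at 2.38 and *Pla2g4e* at −0.99 are the 2 in red (adjusted p below 0.01), and the widest intervals belong to genes with few reads.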

How the data were processed

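The authors aligned reads of a stranded poly(A) kit with STAR 2.7.0d and deposited raw read counts per gene from featureCounts 1.6.0, 1 file per library, without normalization. The file headers name GENCODE release M28 of the mouse, without options for strand or read pairs, and the labels GRCm39, whereas the paper's methods name mm10. Symbols came from GENCODE vM21 by gene identifier (52081 of 55357 matched), and transcripts, 3′ UTRs and seed matches from the same release (GRCm38). The hairpin sequences came from the study's supplementary list of reagents. RPKM are CPM divided by the exon length in kilobases.

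A gene was tested if any library held 6 or more of its reads, with edgeR 4.0.16 in R 4.3.3 (TMM, glmQLFit, glmQLFTest) with Benjamini-Hochberg adjustment. Intervals use the test's standard error. The paper used limma after voom, which was an alternative here (limma 3.58.1), beside DESeq2 1.42.0, other scalings and filters, a robust fit, a threshold of 0.05, a replicate block and leaving out each library. The fits were tested on simulated data. The blocked calls of markers and of genes with a seed match, and ratios and pathway levels over the longest coding transcript, were added after seeing the data.

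Replicate numbers 1 to 3 occur in both groups, as the labels give them. Same-numbered libraries deviated together from their group means (correlations of 0.392, 0.189 and 0.461 over 10908 genes). The main test, with its fold changes, intervals and adjusted p, held no term for these pairs. The replicate block was an alternative, and its values are given where they change a call. No 2 libraries agreed within sampling noise (chi-square per gene 6.03 to 38.0).

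The 10 genes and the lists were chosen with earlier results of these data known. The rule for named genes took the 10 genes, pathway genes that passed and the 3 with the highest level per length, the 3 genes most like *Cnr1*, and markers at 0 or alone called in their list. The pathway genes named beyond it, because they were not tested, passed under an alternative or ranked high over another length, were chosen after their values were seen.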

Additional observations from a re-analysis of the deposited data

How the results depend on the processing

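Each of the 10 genes was refitted under 16 alternatives, and 153 of the 160 fold changes kept their direction and their side of the threshold. *Dagla* was the 1 gene called under every alternative, including the replicate block and leaving out each library (log2 fold change −0.59 to −0.51), so the count of called genes was 1 throughout. The other 7 changed sign, and none of those was called. Scaling by library size alone turned *Gde1* to 0.017 and, of the named pathway genes, *Fabp7* to 0.027. Leaving out 1 library gave −0.013 to 0.074 for *Abhd4*, −0.36 to 0.13 for *Naaa*, −0.0060 to 0.18 for *Daglb*, −0.20 to 0.0043 for *Cnr1* and −0.36 to 0.13 for *Fabp7*. At the threshold of 0.01 the replicate block changed no call among the 10 genes, while at 0.05 it added *Mgll* (adjusted p = 0.0443 in edgeR). Of the other pathway genes 2 passed, against 5 without a filter, 5 at an adjusted p of 0.05 and 6 with the replicate block. The count was 3, with *Plcb1* added, under limma after voom, DESeq2, and without shCtrl replicate 3 or sh*Pla2g4e* replicate 1. It was 2 in the robust fit, where *Plcb1* passed and *Ptgs2* did not. Counting any annotated coding transcript, 2 of the 10 genes held the seed match in a 3′ UTR in place of 1. *Napepld*, the gene of the 10 with the fewest reads (164 to 280 per library), had an interval from 99.2% to 152.1% of its control level, and *Naaa*, with 372 to 650 reads, one from 70.6% to 122.7%.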
